A study of Homo sapiens with 12 samples.

Results

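The protein-coding genes of chromosome 19 whose names are ZNF plus a number numbered 249 of the 58735 genes counted in RNA of HepG2, an established human liver cancer cell line. They were chosen by annotation alone (biotype, chromosome and name), as a set proposed with results of these libraries in view, so counts over them are descriptions. Of the 249 genes, 211 had enough counts to be tested, and the other 38 are accounted for below. In cells given sorafenib plus nobiletin, 105 of the 211 (49.8%) were lower than in vehicle cells, against 32% of all genes tested, and 36 (17.1%), led by ZNF433, were higher, against 32.2%. The long arm of the chromosome held 145 of the 211 and 84 of the 105.

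Most of these genes encode C2H2 zinc finger proteins, in which an array of fingers reads DNA and, in many members, an N-terminal KRAB domain binds the corepressor TRIM28. TRIM28 brings in the histone methyltransferase SETDB1, heterochromatin protein and histone deacetylases, and the sites bound, often transposable elements, acquire the repressive mark H3K9me3. The family grew by tandem duplication, so that its members stand side by side in clusters on chromosome 19, and those clusters are themselves known to carry H3K9me3, placed in part through the member ZNF274.

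The 12 libraries formed 4 groups of 3. Cells received nobiletin, a polymethoxylated flavone of citrus peel, at 5 µM (NOB), sorafenib, an inhibitor of RAF kinases and VEGF receptors, at 2 µM (SOR), both compounds at those doses (SOR+NOB), or vehicle (Control). All groups were 1 cell line grown in the same medium with serum and antibiotics, and the labels state no exposure time. The labels do not say that replicates came from separate cultures, so p-values measure the spread between these libraries, which may be technical. Total counts per library ran between 17945656 and 25669823. The 8 hepatocyte markers checked, among them ALB, APOB and AFP, were at 77.6 CPM or more in every library. Of the 8 markers of other cell types, PECAM1 (3.44 to 13.4 CPM) and KRT19 (17.2 to 65.0 CPM) exceeded 1 CPM and PTPRC, CD68, COL1A1, COL3A1, DES and SFTPB did not. In bulk RNA, fewer cells of a kind and less RNA per cell cannot be told apart.

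One library stood apart. SOR+NOB replicate 1 differed from its group's replicates 2 and 3 by 27.6 and 19.3 times the counting noise (chi-square over its degrees of freedom, all genes), against 2.78 to 5.58 times for the other pairs of replicates, and it detected 20138 genes, against 22542 to 25014 in the other libraries. Over the ZNF genes alone the same ratios were 7.68 and 7.24, against 1.97 to 3.04. The totals of members called in comparisons with SOR+NOB, and for the interaction, are therefore given with and without it. Other counts that rest on the SOR+NOB libraries, such as those by cluster, are given only with it. The ZNF genes of chromosome 19 together took 0.227 ± 0.00165% of counts in NOB, 0.211 ± 0.00322% in SOR, 0.205 ± 0.000551% in SOR+NOB and 0.234 ± 0.00427% in Control (SD, n = 3 each).

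As a family these were weakly expressed genes. Per length, the 211 tested members had a median of 1.31 FPKM over the 12 libraries, below the 2.36 FPKM of the 217 tested ZNF genes of other chromosomes, the 5.25 FPKM of the 756 other protein-coding genes of chromosome 19 and the 3.16 FPKM of all 17115 genes tested. Their range ran between 0.0982 FPKM for ZNF568, whose mouse ortholog represses a placental Igf2 transcript, and 29.6 FPKM for ZNF581. ZNF146, a protein made almost wholly of fingers with no KRAB domain, averaged 17.6 FPKM. Of the 38 untested members, 14 had 0 counts in every library and 13 lay in the cluster near the centromere that runs between ZNF101 and ZNF254. The highest untested member, ZNF415, had 83 counts over all libraries, a mean of 0.318 CPM. ZNF93, which binds L1 elements, and ZNF418 were also untested, at no more than 0.386 CPM and 0.275 CPM in any library.

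In SOR+NOB against Control, 36 of 211 members rose (17.1%) and 105 fell (49.8%), at an adjusted p under 0.05 from edgeR's quasi-likelihood test over all genes. Among all 17115 genes tested, 32.2% rose and 32% fell, so the share of falls was above the background and the share of rises below it. The median log2 fold change was -0.46 over the members and -0.02 over all genes. Calls of more than 2-fold numbered 16 rises (7.58%, against 9.92% of all genes) and 47 falls (22.3%, against 16.1%). Without SOR+NOB replicate 1 the counts were 35 rises and 107 falls. In CPM (each count set against its library total after TMM scaling), the 3 SOR+NOB libraries lay below all 9 other libraries in 76 members (36%, against 18.7% of all genes) and above all 9 in 25 members (11.8%, against 19.7%). The share of counts from small nuclear RNAs was 0.0128 ± 0.00119% in SOR+NOB and 0.00867 ± 0.00115% in Control (SD, n = 3 each). That from mitochondrial rRNA was 3.103, 2.752 and 2.861% in SOR+NOB libraries and 1.399, 1.36 and 1.323% in Control libraries, with NOB and SOR libraries between 1.729% and 2.007%. The part of either in these counts was not tested.

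**Figure D1:**
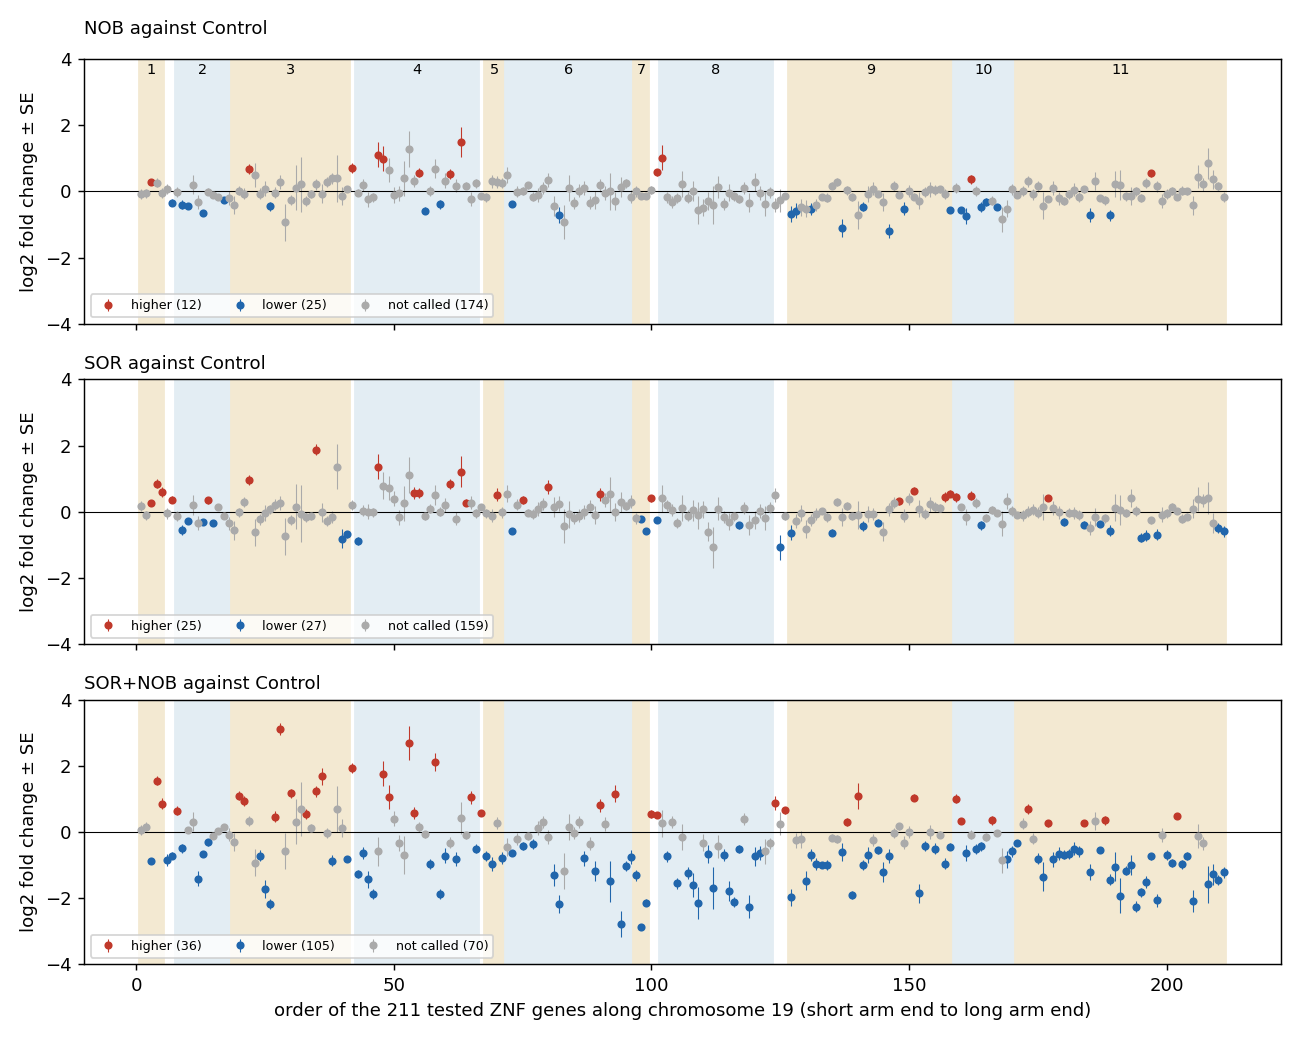
Log2 fold change ± SE (y axis, edgeR) of the 211 tested ZNF genes in their order along chromosome 19 (x axis), for NOB, SOR and SOR+NOB against Control; red points were higher and blue points lower at an adjusted p under 0.05, grey points were not called, and shaded bands mark the 11 numbered clusters. The panels for single compounds hold 12 and 25 red and blue points for NOB and 25 and 27 for SOR, and the panel for SOR+NOB holds 36 and 105, most of the blue ones to the right of cluster 4.

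Other zinc finger genes gave a point of comparison. Of the 217 tested ZNF genes on other chromosomes, 55 rose (25.3%) and 82 fell (37.8%) in SOR+NOB against Control, with a median log2 fold change of -0.13. The 175 of them annotated in the C2H2 family, as most members are, had 38 rises (21.7%) and 72 falls (41.1%), with a median of -0.16. The 756 other protein-coding genes of chromosome 19 had 239 rises (31.6%) and 246 falls (32.5%) with a median of -0.06. Of the 10 tested zinc finger genes of chromosome 19 with other names, 0 rose and 8 fell, with a median of -1.15. PEG3, an imprinted zinc finger gene, was the most abundant of these, with 328.5, 308.4 and 333.5 CPM in SOR+NOB libraries against 949.0, 938.6 and 963.6 CPM in Control libraries, and ZFP30 and MZF1 fell by 1.31 and 1.37 on the log2 scale. These differences between sets were not tested.

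Members were ordered by position (GRCh38), and a new cluster was begun wherever more than 500 kb separated neighbours. This gave 11 clusters holding 238 members and left 11 isolated ones. Falls outnumbered rises in 9 of the 11 clusters in SOR+NOB against Control, in 11 of the clusters cut at 250 kb and in 8 of those cut at 1000 kb. The widest gap, 6.1 Mb between ZNF254 and ZNF536, spans the centromere. On its short-arm side, 18 of 66 tested members rose (27.3%) and 21 fell (31.8%), with a median log2 fold change of -0.01. On its long-arm side, 18 of 145 rose (12.4%) and 84 fell (57.9%), with a median of -0.59. Of all genes tested, 32.2% rose and 32% fell, so the short-arm share of falls was at the background. The counts by cluster below stand against the same shares. Members named below for their place in a cluster, outside the rule for named genes, were chosen after their values were seen.

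**Figure D2:**
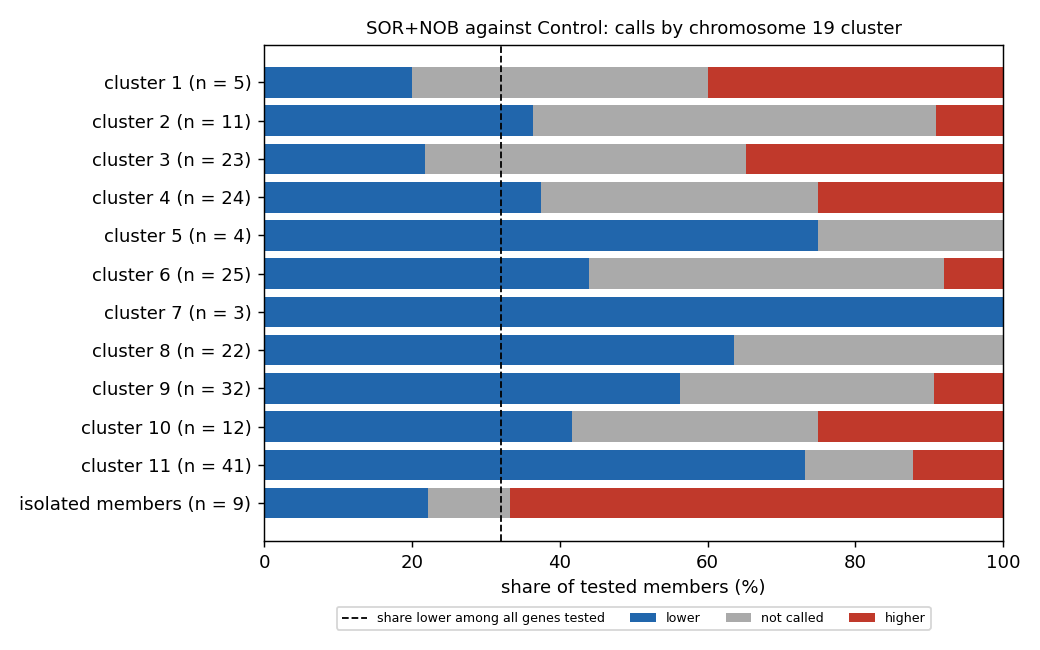
Share of tested members that were lower (blue), not called (grey) or higher (red) in SOR+NOB against Control (x axis, %), for each of the 11 clusters in chromosome order and the isolated members (y axis, with the number tested); the dashed line marks the 32% of all genes tested that were lower. All 3 members of cluster 7 and 30 of 41 in cluster 11 were lower, and 6 of the 9 isolated members were higher.

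Cluster 1 (chr19:2819874-2944971), nearest the short-arm end, held 5 tested members. Its neighbours ZNF57 and ZNF77 rose in both groups that received sorafenib. ZNF57 had 6.19, 6.45 and 5.57 CPM in NOB, 9.41, 8.60 and 9.14 CPM in SOR, 14.5, 14.2 and 15.7 CPM in SOR+NOB, and 5.10, 5.41 and 4.64 CPM in Control. Its SOR+NOB libraries were above all others and its SOR libraries above both NOB and Control, with log2 fold changes against Control of 0.84 ± 0.14 in SOR (SE, adjusted p = 2.9e-05) and 1.55 ± 0.13 in SOR+NOB (adjusted p = 1.2e-09). ZNF556, which adjoins ZNF57 and had the highest level per length in this cluster (5.10 FPKM), moved the other way under the combination. It had 39.3, 43.3 and 42.4 CPM in NOB, 41.4, 39.0 and 42.1 CPM in SOR, 19.2, 17.9 and 18.8 CPM in SOR+NOB, and 33.5, 35.3 and 33.8 CPM in Control. The groups of this gene did not overlap with Control: it was higher in each single treatment (log2 fold changes of 0.28 ± 0.08 in NOB and 0.26 ± 0.08 in SOR) and lower in SOR+NOB (-0.88 ± 0.08, adjusted p = 2.5e-09).

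In cluster 2 (chr19:8509678-9793180), 1 of 11 tested members rose in SOR+NOB against Control (9.09%) and 4 fell (36.4%, against 32% of all genes). ZNF317, its highest member at 7.69 FPKM, fell in NOB and SOR (log2 fold changes of -0.45 ± 0.08 and -0.28 ± 0.08) and had a log2 fold change of 0.06 ± 0.08 in SOR+NOB (adjusted p = 0.54).

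Cluster 3 (chr19:11483427-12640098) was one of the 2 clusters in which rises outnumbered falls. Of 23 tested members, 8 rose (34.8%, against 32.2% of all genes) and 5 fell (21.7%, against 32%), with a median log2 fold change of 0.31. It held ZNF433 (chr19:12014732-12035741, minus strand), the largest rise among the called members. ZNF433 had 2.01, 2.09 and 2.58 CPM in NOB, 2.63, 1.94 and 1.93 CPM in SOR, 17.3, 16.1 and 13.8 CPM in SOR+NOB, and 1.72, 1.76 and 1.97 CPM in Control. The 3 SOR+NOB libraries were far above the other 9, which lay together: the log2 fold change was 3.11 ± 0.19 in SOR+NOB (adjusted p = 3.8e-12), 0.30 ± 0.21 in NOB (adjusted p = 0.30) and 0.27 ± 0.22 in SOR (adjusted p = 0.35). ZNF433-AS1, on the opposite strand, averaged 3.28 CPM in SOR+NOB and 0.985 CPM in Control, and reads of the pair cannot be told apart where counting ignores strand. The promoter of ZNF433 is shown because this member rose most, on GRCh38.p14 as RefSeq gives it, between 130 bases before and 30 after the start site, with capitals marking a CCAAT box:
ZNF433 promoter, chr19:12035650-12035809, minus strand: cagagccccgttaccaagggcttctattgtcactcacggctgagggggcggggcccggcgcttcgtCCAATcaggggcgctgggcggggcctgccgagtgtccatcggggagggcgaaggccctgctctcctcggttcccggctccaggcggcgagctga

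Neighbours of ZNF433 behaved unalike. ZNF844 (5.44, 4.51 and 5.16 CPM in NOB, 5.10, 4.83 and 5.28 CPM in SOR, 15.2, 12.2 and 13.4 CPM in SOR+NOB, and 6.07, 5.98 and 6.01 CPM in Control) was high in the combination, while NOB and SOR lay slightly below Control and were not called; the log2 fold change in SOR+NOB was 1.17 ± 0.14. ZNF442 followed the same pattern, at 5.83, 6.01 and 7.02 CPM in SOR+NOB against 1.41, 2.09 and 2.39 CPM in Control (1.68 ± 0.27, adjusted p = 9.6e-06), as did ZNF627, the highest member of the cluster per length (1.09 ± 0.13). ZNF69, between ZNF627 and ZNF433 on the map, went the opposite way, with 2.86, 3.39 and 3.21 CPM in SOR+NOB against 13.4, 16.5 and 13.2 CPM in Control, or a log2 fold change of -2.18 ± 0.16 (adjusted p = 6.3e-11). ZNF563 was highest in SOR alone, with 5.52, 3.79 and 4.28 CPM in NOB, 15.1, 14.7 and 13.2 CPM in SOR, 8.25, 9.61 and 9.46 CPM in SOR+NOB, and 4.13, 3.42 and 4.13 CPM in Control. Its SOR and SOR+NOB libraries did not overlap with each other or with Control, and its log2 fold change of 1.88 ± 0.16 in SOR (adjusted p = 2.1e-09) was the largest rise of that comparison among the called members.

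**Figure D3:**
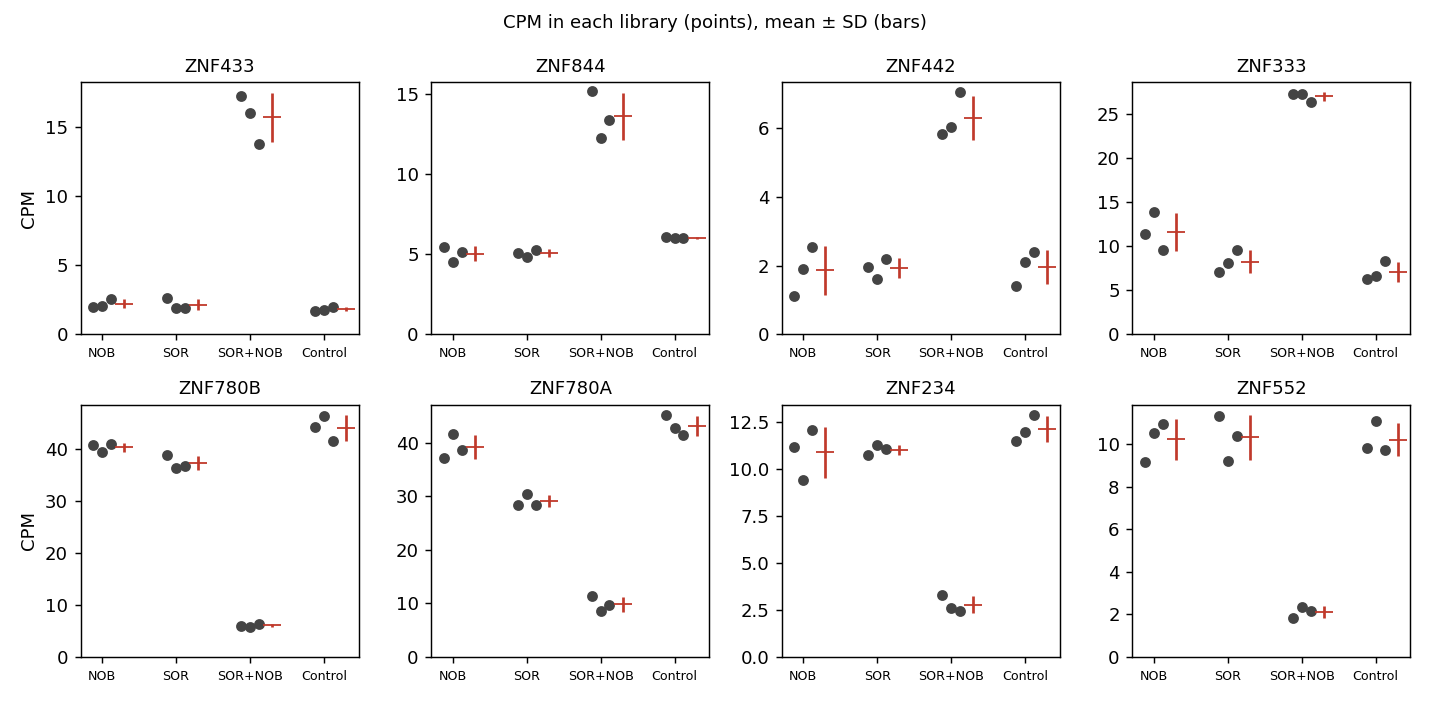
CPM (y axis) of 8 ZNF genes in each library (points) with the group mean ± SD (red bars, n = 3) in NOB, SOR, SOR+NOB and Control (x axis). In the upper row (ZNF433, ZNF844, ZNF442 and ZNF333) the SOR+NOB libraries lie above all others, and in the lower row (ZNF780B, ZNF780A, ZNF234 and ZNF552) they lie below all others.

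Cluster 4 (chr19:19668796-24129961), beside the centromere, had the lowest median level over all members, 0.333 FPKM over its 37, tested or not. Over tested members its median was 4.35 CPM, above the 3.71 CPM of cluster 8. Of its 24 tested members, 6 rose (25%, against 32.2% of all genes) and 9 fell (37.5%, against 32%) in SOR+NOB against Control. ZNF85 had 1.37, 2.23 and 2.35 CPM in SOR+NOB against 0.132, 0.285 and 0.505 CPM in Control (log2 fold change 2.68 ± 0.51), and ZNF738 had 4.18, 4.42 and 4.30 CPM in SOR+NOB against 1.28, 0.997 and 0.689 CPM in Control (2.11 ± 0.28). ZNF738 encodes 137 residues in which no finger was found. ZNF101, the highest member at 3.01 FPKM, fell in both sorafenib groups, with 27.2, 25.4 and 27.03 CPM in NOB, 16.3, 12.7 and 15.1 CPM in SOR, 11.9, 11.9 and 10.1 CPM in SOR+NOB, and 24.9, 26.5 and 30.4 CPM in Control. NOB overlapped with Control and the other treated groups lay below it, with log2 fold changes of -0.89 ± 0.11 in SOR and -1.28 ± 0.11 in SOR+NOB. ZNF91, which binds and represses SVA retrotransposons, rose in SOR (0.27 ± 0.10, adjusted p = 0.040) and had a log2 fold change of -0.11 ± 0.11 in SOR+NOB (adjusted p = 0.39). ZNF675, known as an inhibitor of TRAF6 signalling, rose in SOR+NOB (1.05 ± 0.20, adjusted p = 9.8e-05).

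The isolated members on both arms included ZNF333 (chr19:14689801-14733746, plus strand). It had 11.4, 13.9 and 9.56 CPM in NOB, 7.02, 8.10 and 9.60 CPM in SOR, 27.3, 27.2 and 26.4 CPM in SOR+NOB, and 6.29, 6.65 and 8.36 CPM in Control. The SOR+NOB libraries were the highest and the NOB libraries lay between them and Control, with log2 fold changes of 1.93 ± 0.15 in SOR+NOB (adjusted p = 1.3e-10) and 0.71 ± 0.15 in NOB (adjusted p = 6.0e-04). Of 9 tested isolated members, 6 rose and 2 fell in SOR+NOB, a median log2 fold change of 0.53.

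On the long arm, cluster 7 (chr19:39984134-40090938) consisted of 3 genes, ZNF546, ZNF780B and ZNF780A, and all 3 fell in SOR+NOB. ZNF780B (chr19:40028260-40056209, minus strand), a KRAB protein with 21 fingers found, had 40.7, 39.3 and 40.8 CPM in NOB, 38.8, 36.3 and 36.8 CPM in SOR, 5.99, 5.75 and 6.34 CPM in SOR+NOB, and 44.2, 46.3 and 41.4 CPM in Control. The SOR+NOB libraries were tightly grouped and far below the rest, with a log2 fold change of -2.87 ± 0.09 (adjusted p = 5.2e-17), the largest fall among the called members. ZNF780A, its neighbour and paralog, had 37.1, 41.5 and 38.7 CPM in NOB, 28.3, 30.4 and 28.4 CPM in SOR, 11.3, 8.50 and 9.69 CPM in SOR+NOB, and 45.2, 42.7 and 41.5 CPM in Control (-2.14 ± 0.10 in SOR+NOB and -0.57 ± 0.09 in SOR). ZNF546 fell by 1.32 ± 0.18 on the log2 scale. Of the coding 50-base words of ZNF780B, 6.49% also stood in transcripts of another gene, and 11.5% of those of ZNF780A did. The promoter of ZNF780B, shown for the largest fall, held CCAAT (capitals) and no CCGGAAG:
ZNF780B promoter, chr19:40056202-40056361, minus strand: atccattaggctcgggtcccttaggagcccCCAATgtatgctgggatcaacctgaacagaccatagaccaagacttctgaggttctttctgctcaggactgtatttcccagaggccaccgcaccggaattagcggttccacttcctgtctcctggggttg

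Cluster 5 (chr19:34677639-34964049) had 3 falls in 4 tested members, and cluster 6 had 11 falls and 2 rises in 25. In cluster 6 (chr19:36182060-37817300), ZNF781 had 0.825, 0.343 and 0.181 CPM in SOR+NOB against 3.65, 3.32 and 1.97 CPM in Control, and ZNF345 had 0.605, 1.33 and 1.09 CPM in SOR+NOB against 6.07, 4.13 and 3.86 CPM in Control. Neither gene's SOR+NOB and Control libraries overlapped, and the log2 fold changes were -2.78 ± 0.39 and -2.19 ± 0.28. ZNF146 fell under all 3 treatments, with 74.8, 76.5 and 69.2 CPM in NOB, 59.8, 64.6 and 66.4 CPM in SOR, 71.3, 60.9 and 54.8 CPM in SOR+NOB, and 95.9, 98.4 and 93.2 CPM in Control. The SOR+NOB libraries overlapped with those of both single compounds, no treated library overlapped with Control, and the log2 fold changes were -0.38 ± 0.08 in NOB, -0.59 ± 0.08 in SOR and -0.62 ± 0.08 in SOR+NOB. ZNF382 fell by 0.36 ± 0.15 on the log2 scale in SOR+NOB (adjusted p = 0.039), and ZNF568 had a log2 fold change of 0.14 ± 0.39 (adjusted p = 0.77).

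In cluster 8 (chr19:43525497-44500524), 14 of 22 tested members fell in SOR+NOB and 0 rose at an adjusted p under 0.05. ZNF234 had 11.2, 9.44 and 12.1 CPM in NOB, 10.7, 11.3 and 11.1 CPM in SOR, 3.30, 2.62 and 2.45 CPM in SOR+NOB, and 11.5, 11.96 and 12.9 CPM in Control, and the SOR+NOB libraries alone lay below the others (-2.13 ± 0.15, adjusted p = 6.8e-11). ZNF235 spread more, with 0.330, 0.815 and 2.17 CPM in SOR+NOB against 5.94, 5.41 and 4.96 CPM in Control (-2.26 ± 0.35), the lowest value being that of replicate 1. ZNF224, which represses the aldolase A gene, fell by 0.69 ± 0.19 (adjusted p = 0.0026). ZNF428, the highest member of the cluster at 9.41 FPKM, had 13.5, 28.8 and 20.1 CPM in SOR+NOB against 15.9, 18.6 and 16.3 CPM in Control, and the groups overlapped (log2 fold change 0.31 ± 0.17, adjusted p = 0.13).

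Cluster 9 (chr19:51571298-53580269) had 18 falls and 3 rises in 32 tested members. ZNF614, its highest member, had 20.6, 18.8 and 16.1 CPM in SOR+NOB against 38.6, 36.4 and 35.2 CPM in Control, and its NOB and SOR libraries stayed between 30.8 and 37.5 CPM (log2 fold change in SOR+NOB -0.99 ± 0.09, adjusted p = 4.8e-09). ZNF350, a partner of BRCA1 also called ZBRK1, fell in NOB and SOR+NOB by 0.54 ± 0.18 and 0.71 ± 0.18, and ZNF649 was not called in any of the 3 comparisons with Control. ZNF331, an imprinted gene, moved in opposite directions under the single compounds. It had 13.6, 13.6 and 13.0 CPM in NOB, 27.6, 29.7 and 29.4 CPM in SOR, 12.9, 16.0 and 14.7 CPM in SOR+NOB, and 20.01, 18.8 and 20.5 CPM in Control. No treated library overlapped with Control, and the log2 fold changes were -0.56 ± 0.10 in NOB, 0.54 ± 0.10 in SOR and -0.44 ± 0.10 in SOR+NOB (adjusted p = 7.7e-05, 7.1e-05 and 5.0e-04).

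Cluster 10 (chr19:55476332-56671783) held the more strongly expressed ZNF581, ZNF787 and ZNF444, with a median of 3.19 FPKM over its 16 members, tested or not. Of its 12 tested members, 3 rose (25%, against 32.2% of all genes) and 5 fell (41.7%, against 32%) in SOR+NOB against Control. ZNF581 had 37.7, 63.0 and 54.8 CPM in SOR+NOB against 56.3, 59.2 and 59.5 CPM in Control, an overlap with the low value in replicate 1 (log2 fold change -0.17 ± 0.12, adjusted p = 0.23).

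The telomeric cluster 11 (chr19:57191500-58481230) was the largest, with 41 of 43 members tested, and 30 of them fell and 5 rose in SOR+NOB, a median log2 fold change of -0.74. ZNF274, which binds the 3' ends of ZNF genes and recruits SETDB1 and TRIM28 there, was among the 5 that rose. It had 21.2, 25.5 and 24.9 CPM in NOB, 28.0, 25.2 and 28.0 CPM in SOR, 34.9, 39.6 and 37.1 CPM in SOR+NOB, and 27.8, 24.9 and 27.4 CPM in Control. The SOR+NOB libraries were above all others, with a log2 fold change of 0.48 ± 0.09 (adjusted p = 7.9e-05). ZNF460 rose too (0.70 ± 0.15), and ZNF134, the cluster's highest member per length, fell by 0.54 ± 0.09.

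Within cluster 11, 10 consecutive tested members fell in SOR+NOB, against Control, against SOR and against NOB alike: ZNF551, ZNF154, ZNF671, ZNF776, ZNF586, ZNF552, ZNF587B, ZNF814, ZNF587 and ZNF417, over 235 kb (chr19:57681969-57916610). Their log2 fold changes against Control ran between -2.26 and -0.74, with a median of -1.48. ZNF552 (chr19:57803841-57814913, minus strand) had 9.16, 10.5 and 10.97 CPM in NOB, 11.3, 9.21 and 10.4 CPM in SOR, 1.81, 2.36 and 2.17 CPM in SOR+NOB, and 9.81, 11.1 and 9.73 CPM in Control. Its single treatments overlapped with Control and the combination lay far below, with log2 fold changes of 0.00 ± 0.14 in NOB, 0.02 ± 0.14 in SOR and -2.26 ± 0.16 in SOR+NOB. ZNF587 and ZNF417, paralogs that repress HERVK elements, each shared 66.7% of their coding 50-base words with transcripts of another gene, so their counts depend on how reads of like sequence were assigned. ZNF417 had 1.87, 1.63 and 2.85 CPM in SOR+NOB against 7.48, 9.73 and 9.41 CPM in Control, and ZNF587 had 21.0, 17.2 and 14.3 CPM in SOR+NOB against 27.8, 28.9 and 30.6 CPM in Control. ZNF587 was higher in NOB, at 43.4, 40.4 and 43.8 CPM (0.55 ± 0.11). The pairs ZNF551 and ZNF154, ZNF586 and ZNF552, and ZNF814 and ZNF587 overlap on opposite strands, and the strand setting of the counts is not given in the sources used here.

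**Figure D4:**
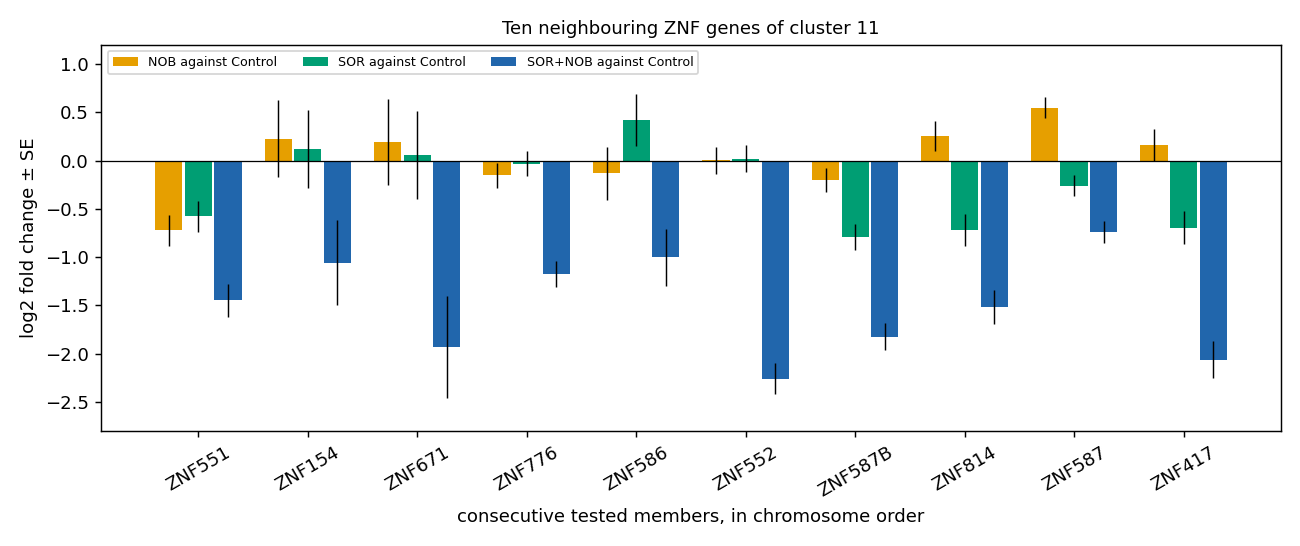
Log2 fold change (y axis; bars, with SE) of the 10 neighbouring members of cluster 11 in chromosome order (x axis) in NOB, SOR and SOR+NOB against Control. The SOR+NOB bars run between -2.26 and -0.74 in all 10 genes, while the bars of the single compounds lie on both sides of 0.

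Promoters of these 10 neighbours are shown because the genes moved together: 8 had an entry in the RefSeq promoter table (GRCh38.p14), given between 130 bases before and 30 after the start site, 5' to 3' on the gene's strand. Capitals mark CCGGAAG, the core read by ETS factors such as GABPA, and CCAAT, read by NF-Y, on either strand. In the full window of 250 bases before to 50 after the start site, 7 of the 8 held CCGGAAG, with its first base between position -32 and position 4 from the start site, and 7 held CCAAT, which in ZNF587 stood outside the stretch shown. ZNF154, a gene often methylated in tumours, held neither.
ZNF551 promoter, chr19:57681847-57682006, plus strand: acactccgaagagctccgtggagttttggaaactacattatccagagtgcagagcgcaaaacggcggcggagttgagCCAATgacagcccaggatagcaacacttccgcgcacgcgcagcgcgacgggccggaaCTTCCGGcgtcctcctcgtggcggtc
ZNF154 promoter, chr19:57709175-57709334, minus strand: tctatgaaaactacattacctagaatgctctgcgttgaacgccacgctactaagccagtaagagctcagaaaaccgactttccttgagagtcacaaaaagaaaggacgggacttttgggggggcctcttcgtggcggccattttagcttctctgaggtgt
ZNF671 promoter, chr19:57727595-57727754, minus strand: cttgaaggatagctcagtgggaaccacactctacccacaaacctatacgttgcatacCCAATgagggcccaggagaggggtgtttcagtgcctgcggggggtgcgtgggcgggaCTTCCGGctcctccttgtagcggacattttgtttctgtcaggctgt
ZNF776 promoter, chr19:57746685-57746844, plus strand: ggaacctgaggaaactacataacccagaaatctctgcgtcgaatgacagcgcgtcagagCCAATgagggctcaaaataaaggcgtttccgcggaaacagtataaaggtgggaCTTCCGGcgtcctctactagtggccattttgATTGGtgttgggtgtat
ZNF586 promoter, chr19:57769546-57769705, plus strand: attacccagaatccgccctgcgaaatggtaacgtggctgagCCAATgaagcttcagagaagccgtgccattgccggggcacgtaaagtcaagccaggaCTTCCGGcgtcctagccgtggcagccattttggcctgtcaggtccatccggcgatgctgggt
ZNF587B promoter, chr19:57830169-57830328, plus strand: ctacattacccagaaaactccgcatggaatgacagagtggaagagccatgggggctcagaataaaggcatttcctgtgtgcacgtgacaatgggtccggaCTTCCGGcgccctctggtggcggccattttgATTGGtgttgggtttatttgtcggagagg
ZNF814 promoter, chr19:57889008-57889167, minus strand: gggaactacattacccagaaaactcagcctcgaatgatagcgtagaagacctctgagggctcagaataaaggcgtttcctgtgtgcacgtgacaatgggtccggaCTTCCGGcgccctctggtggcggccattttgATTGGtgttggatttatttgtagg
ZNF587 promoter, chr19:57849729-57849888, plus strand: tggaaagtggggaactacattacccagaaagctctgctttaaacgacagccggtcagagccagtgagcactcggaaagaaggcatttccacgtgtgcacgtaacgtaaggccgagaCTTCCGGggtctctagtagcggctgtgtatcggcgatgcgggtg

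The same search was made in all 217 member promoters of the table and in all 27305 promoters, on both strands, for CCGGAAG, for CCAAT, for AAGATGGC, read by YY1, for GCGCATGCG, read by NRF1, for the E-box CACGTG and for the TATA box (the word TATAAA). The YY1 word can overlap the ETS word by shared letters. CCGGAAG stood in 45.6% of member promoters, against 34.7% of 213 promoters of ZNF genes on other chromosomes, 13.1% of 922 of other protein-coding genes on chromosome 19 and 10.7% of all. CCAAT stood in 53.9%, against 43.7%, 37.5% and 35.7%, and the TATA box in 1.84%, against 4.23%, 8.13% and 12%. The YY1 word stood in 6.45% of member promoters, against 2.82%, 5.86% and 3.03% in the same 3 sets, the NRF1 word in 2.76%, against 5.16%, 3.8% and 2.1%, and the E-box in 4.15%, against 6.1%, 8.57% and 7.43%. CG dinucleotides had a median of 20 per member promoter, against 24 for ZNF genes of other chromosomes, 21 for other protein-coding genes of chromosome 19 and 14 over all promoters. Paralogous promoters share ancestry and are not independent.

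The share of promoters with CCGGAAG varied between clusters. It stood in 27 of 40 promoters of cluster 11, 21 of 33 of cluster 9 and 21 of 29 of cluster 4, but in 2 of 25 of cluster 3. CCAAT stood in 23 of 25 in cluster 3, 29 of 29 in cluster 4, 5 of 5 in cluster 1 and 28 of 40 in cluster 11. It stood in 10 of 33 in cluster 9, 5 of 24 in cluster 6 and 4 of 19 in cluster 8. The promoters of cluster 11 include the 8 shown above. For SOR+NOB against Control, CCGGAAG stood in 43 of 92 promoters of members that fell, 13 of 31 of members that rose and 27 of 65 of members not called. CG dinucleotides had medians of 20.5 in the promoters of members that fell, 19 in those of members that rose and 21 in those not called.

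Few members were called with nobiletin alone. In NOB against Control, 12 of 211 rose (5.69%, against 18.9% of all genes) and 25 fell (11.8%, against 19.2%), both below the background, and the median log2 fold change was -0.07. A gene not called is not shown to be unchanged. Tested members had a median of 6.97 CPM, against 13.65 CPM over all genes tested, and calls are harder to reach at lower counts. The part of this lower level in the shares for NOB and SOR was not tested. The count of falls was 16 without any 1 of the 3 Control libraries or without NOB replicate 2, and 14 without NOB replicate 3. ZNF600 fell most, with 5.57, 5.597 and 6.21 CPM in NOB against 15.0, 13.7 and 11.2 CPM in Control (-1.20 ± 0.21, adjusted p = 1.2e-04). In SOR+NOB, ZNF600 had 12.2, 7.04 and 4.98 CPM, a spread that overlapped both NOB and Control (-0.74 ± 0.21 against Control, adjusted p = 0.0044). ZNF836 of the same cluster had 1.88, 0.996 and 1.73 CPM in NOB against 3.12, 3.37 and 3.54 CPM in Control (-1.11 ± 0.27), and ZNF524, ZNF551 and ZNF416 fell by 0.74, 0.72 and 0.72 on the log2 scale. Among the rises, ZNF526 had 24.5, 23.9 and 23.1 CPM in NOB against 16.6, 15.5 and 15.9 CPM in Control (0.57 ± 0.09, adjusted p = 3.2e-05). ZNF682, ZNF575, ZNF333 and ZNF441 rose by 1.11, 1.02, 0.71 and 0.69, the first 2 at under 3 CPM.

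In sorafenib alone, 25 of 211 members were higher (11.8%, against 21.7% of all genes) and 27 lower (12.8%, against 19.3%) than in Control, with a median log2 fold change of -0.02. Beside ZNF563 and ZNF57, ZNF441 had 9.32, 9.82 and 11.6 CPM in SOR against 5.72, 4.79 and 5.23 CPM in Control (0.96 ± 0.15), and ZNF682 and ZNF100 rose by 1.36 and 0.83. Among the falls, ZNF101 led those above 10 CPM (-0.89 ± 0.11, adjusted p = 6.9e-07). ZNF114 and ZNF490, both at under 3 CPM, fell by 1.08 and 0.81. Of the 10 neighbours in cluster 11, ZNF551, ZNF587B, ZNF814 and ZNF417 fell in SOR, by 0.58, 0.79, 0.72 and 0.69. ZNF587B had 7.82, 7.94 and 8.28 CPM in SOR against 12.8, 13.8 and 15.0 CPM in Control, and in SOR+NOB it stood lower again, at 3.74, 4.55 and 3.40 CPM.

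Adding the second compound to either single treatment gave counts close to those against vehicle. In SOR+NOB against SOR, 30 of 211 members rose (14.2%, against 31.4% of all genes) and 104 fell (49.3%, against 31.6%), with a median log2 fold change of -0.46. In SOR+NOB against NOB, 37 rose (17.5%, against 30.3%) and 102 fell (48.3%, against 30.4%), with a median of -0.35. Without SOR+NOB replicate 1 these were 33 and 109, and 38 and 103. Of the 217 tested ZNF genes on other chromosomes, 48 rose (22.1%) and 95 fell (43.8%) in SOR+NOB against SOR. Against NOB, 57 of them rose (26.3%) and 75 fell (34.6%). The 175 of the C2H2 family had 29 rises (16.6%) and 83 falls (47.4%) against SOR. Against NOB these had 37 rises (21.1%) and 70 falls (40%). Among members with a mean of at least 1 CPM, ZNF781 fell most in both, by 3.08 ± 0.39 against SOR and 2.90 ± 0.39 against NOB, followed by ZNF780B (2.63 ± 0.09 and 2.74 ± 0.09). ZNF433 rose most in both (2.84 ± 0.19 and 2.81 ± 0.18), and ZNF442 rose by 1.71 and 1.76. ZNF610 had 2.25, 2.06 and 1.81 CPM in SOR+NOB against 0.795, 0.569 and 0.403 CPM in NOB (1.78 ± 0.41). These comparisons share the SOR+NOB libraries with one another.

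The interaction asks whether nobiletin's effect with sorafenib differed from its effect without, on the log2 scale. It was above 0 in 29 of 211 members (13.7%, against 25.1% of all genes) and below 0 in 75 (35.5%, against 26.9%), with a median of -0.33, and 34 and 91 without SOR+NOB replicate 1. Over the 217 tested ZNF genes on other chromosomes it was above 0 in 36 (16.6%) and below 0 in 74 (34.1%). Their median was -0.18, and their share below 0 was close to that of the members. Over the 175 of the C2H2 family it was above 0 in 19 (10.9%) and below 0 in 66 (37.7%), with a median of -0.27. Among members with a mean of at least 1 CPM it was most negative in ZNF781 (-3.21 ± 0.50), ZNF682 (-3.05 ± 0.56), ZNF780B (-2.50 ± 0.12) and ZNF552 (-2.28 ± 0.22), and most positive in ZNF433 (2.54 ± 0.28), ZNF610 (1.88 ± 0.58), ZNF442 (1.78 ± 0.39) and ZNF844 (1.67 ± 0.21). ZNF682 was high in each single treatment and not in the combination, with 1.84, 2.09 and 1.53 CPM in NOB, 2.88, 1.39 and 2.18 CPM in SOR, 0.880, 0.515 and 0.317 CPM in SOR+NOB, and 0.704, 1.09 and 0.735 CPM in Control. ZNF100, also of cluster 4, had the same order of groups, at 6.70, 6.50 and 6.05 CPM in NOB, 8.53, 8.21 and 7.11 CPM in SOR, 3.79, 3.26 and 3.62 CPM in SOR+NOB, and 4.66, 4.27 and 4.45 CPM in Control (interaction -1.68 ± 0.23, adjusted p = 1.9e-06). Nobiletin's effects without and with sorafenib rest on different libraries: 12 members fell in both, 3 rose in both, 7 rose without and fell with sorafenib, and 2 did the reverse. Across the 211 genes the 2 effects had a Pearson r of 0.11 and a Spearman rho of 0.05. For sorafenib's effects without and with nobiletin, 18 fell in both, 9 rose in both, 12 rose without and fell with nobiletin, and 1 did the reverse (r of 0.23, rho of 0.20). Joint counts over all genes were not taken, so these counts do not show whether members behaved unlike other genes. They also depend on how many members were called each time, such as 25 and 104 falls for nobiletin without and with sorafenib.

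**Figure D5:**
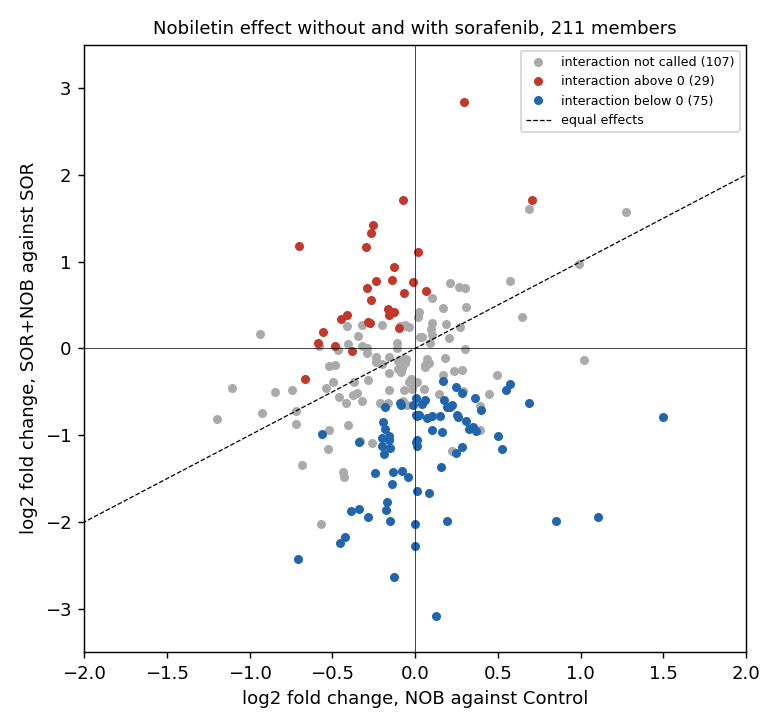
Log2 fold change of NOB against Control (x axis) and of SOR+NOB against SOR (y axis) for the 211 tested members, which rest on different libraries; the dashed line marks equal effects. Red points (29) have an interaction above 0 and blue points (75) one below 0 at an adjusted p under 0.05, and the blue points all lie at negative y values.

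Features of the encoded proteins were read off the coding sequences of GENCODE 29, complete for 248 members. They held a median of 12 fingers (0 to 36) in 589 residues (137 to 1365). A KRAB A box pattern was found in 181 members and not in 67, and it misses some members known to carry one, such as ZNF224. In SOR+NOB against Control, 27 of 154 tested members with the pattern rose and 76 fell, and 9 of 57 without it rose and 29 fell, so the shares of falls were 49.4% and 50.9%. Members with 10% or more of their coding 50-base words in transcripts of another gene had 1 rise (1.64%) and 33 falls (54.1%) in 61. Those under 10% had 35 rises (23.3%) and 72 falls (48%) in 150. Among the 100 tested members with no gene on the opposite strand, 17 rose (17%) and 54 fell (54%). Of all genes tested, 32.2% rose and 32% fell. Number of fingers, protein length, promoter GC content and mean level each had a Pearson r between -0.07 and 0.13 with the log2 fold change across genes, which are not independent replicates. Neighbouring tested members of a cluster had an r of 0.20 and a rho of 0.22 over 191 pairs, 124 of them with the same sign. As 146 of the 211 members had a log2 fold change below 0, many unrelated pairs would share a sign as well.

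Genes of the KRAB corepressor pathway were called at shares near the background in SOR+NOB against Control: of the 22 listed, all tested, 9 rose (40.9%, against 32.2% of all genes and 38.4% of protein-coding ones) and 7 fell (31.8%, against 32% and 31.5%), with a median log2 fold change of 0.04. TRIM28, the direct partner of KRAB, rose by 0.30 (adjusted p = 1.7e-05) and SETDB1 had a log2 fold change of -0.00 (adjusted p = 0.98). UHRF1 and DNMT1, which maintain DNA methylation, rose by 2.25 and 1.01. FAM208A, the TASOR subunit of the HUSH silencing complex, fell by 1.56, its HUSH partner MPHOSPH8 had a log2 fold change of -0.05 (adjusted p = 0.52), and of the NuRD subunits listed, CHD4 and HDAC1 fell by 0.93 and 0.60 and CHD3 rose by 0.57 (adjusted p = 0.0011). UHRF1 also rose in NOB and SOR (2.00 and 1.37), while FAM208A had log2 fold changes of -0.07 and -0.05 there (adjusted p = 0.47 and 0.62).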

How the data were processed

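RNA-seq of 12 HepG2 libraries was analysed. Per the labels' protocols, TRIzol was used for extraction and mRNA was enriched either by poly(A) capture or by removing rRNA. HISAT2 2.0.5, featureCounts 1.5.0-p3 and GRCh38 are named per the submitters' processing notes. The counting's strand setting, and its treatment of reads with several matches, is not given in the sources used here. Raw counts of 58735 genes and FPKM of the same libraries (by definition set against gene length and library total) were deposited by the authors.

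Groups came from the sample titles. Counts were analysed with edgeR 4.0.16 in R 4.3.3: genes filtered with filterByExpr by group (17115 left), TMM scaling, a robust quasi-likelihood fit of 1 mean per group over all 12 libraries (8 degrees of freedom left, and a common BCV, the coefficient of variation between libraries beyond counting noise, of 8.44%), and Benjamini-Hochberg adjustment over all genes of each of 6 comparisons, calling an adjusted p under 0.05. The procedure was tested on simulated data. FPKM described levels per length and served alternatives. Precision depended on depth and on the spread between 3 libraries. The members, gene lists, clusters and features were chosen with earlier results of these data known.

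Named genes were the 5 largest rises and falls of NOB, SOR and SOR+NOB against Control and the 3 largest each way of SOR+NOB against SOR and NOB, among called members with a mean of at least 1 CPM and no overlap of groups. The rule also took the 4 largest interactions each way, the member with the highest FPKM in each cluster with 5 or more tested, and a panel of known members. Coding sequences and overlaps came from GENCODE 29, which matched all 249 members in start and end. Promoters came from RefSeq (GRCh38.p14) for 217 members, matched by Ensembl gene identifier or, where that failed, by symbol. Fingers, KRAB A boxes and motifs were found by pattern. In place of protein identity between members, coding sequences were compared, as words of 50 bases, with the transcripts of all other genes. Results were recomputed with DESeq2 1.42.0, with RLE in place of TMM, without the filter, with only the compared libraries, with protein-coding genes only, with limma 3.58.1 on log2 FPKM with pseudocounts of 1 and 0.1 or without a filter, with a replicate block, with other cluster gaps, and without each library in turn. No library was left out. Python 3.11.15 and matplotlib 3.10.9 made the figures.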

Additional observations from a re-analysis of the deposited data

Results flagged for a closer look

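The interaction tests whether nobiletin's effect differed with and without sorafenib. It was called (edgeR, adjusted p under 0.05) in 27 of 48 named members, 15 below 0 and 12 above. Of all 17115 genes tested, 25.1% were called above 0 and 26.9% below 0. Some of the 48 were named for their large interactions or changes in SOR+NOB, so this count was partly fixed by the choice. No explanation was tested for the 27. Among those below 0 on the log2 scale, the values were -3.21 for ZNF781, -3.05 for ZNF682, -2.5 for ZNF780B, -2.28 for ZNF552 and -1.73 for ZNF345. They were -1.68 for ZNF100, -1.51 for ZNF235, -1.42 for ZNF556, -1.32 for ZNF441 and -1.05 for ZNF814. The smaller ones were -0.872 for ZNF563, -0.854 for ZNF614, -0.833 for ZNF587B, -0.546 for ZNF91 and -0.422 for ZNF331. ZNF563, ZNF331, ZNF441, ZNF100 and ZNF91 were each higher in SOR than in Control and lower in SOR+NOB than in SOR.

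Among those above 0, the values were 2.54 for ZNF433, 1.88 for ZNF610, 1.78 for ZNF442, 1.67 for ZNF844 and 1.6 for ZNF114. They were 1.1 for ZNF627, 1.06 for ZNF490, 1.01 for ZNF333, 1.01 for ZNF675 and 0.791 for ZNF317, and the smallest were 0.621 for ZNF274 and 0.352 for ZNF146. ZNF433, ZNF610, ZNF442, ZNF844 and ZNF627 were not called in either single treatment. ZNF114, ZNF490 and ZNF317 were lower in SOR than in Control and higher in SOR+NOB than in SOR.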

How the results depend on the processing

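No called value of a named member changed sign under any alternative run: of 4464 values of the 48 tested named members, 4222 (94.6%) kept their side of the threshold, 180 lost the call and 62 gained one. Counts for SOR+NOB and for the interaction stayed within 1.5 times the reported count in every alternative run, with 84 to 111 falls and 28 to 36 rises against Control, and 96 to 107 falls and 30 to 35 rises with 1 library left out. Runs on FPKM with a pseudocount tested 173 members and unfiltered runs 235, against 211 reported, so these counts differ in denominator. The 84 falls were of 173. Smaller counts moved more. In NOB against Control the rises numbered 7 of 173 with a pseudocount of 0.1 on FPKM and 5 of 235 on unfiltered FPKM, against 12 of 211 reported. The falls numbered 13 of 235 on unfiltered FPKM and 14 to 21 with 1 library left out, against 25 of 211. In SOR against Control the rises numbered 12 of 235 on unfiltered FPKM, against 25 of 211. The cause was not tested. With the replicate block, SOR+NOB against Control gave 36 rises and 103 falls, NOB against Control 11 and 24, SOR against Control 23 and 27, SOR+NOB against SOR 30 and 107, SOR+NOB against NOB 36 and 102, and the interaction 30 and 75. No pairing of libraries by replicate number was detected. Deviations of same-numbered libraries had a median correlation of -0.00872 over 18 pairs (-0.0504 to 0.0437), and 2 of 12 libraries correlated best with one of their own number. Such correlations cannot show whether same-numbered libraries were prepared together. RLE scaling gave a median over all genes of -0.04 for SOR+NOB against Control, against -0.02 with TMM. Members at low counts are least precise, and weak changes in them were not detectable at this depth.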

Other observations

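In NOB and SOR against Control no run of consecutive members called in 1 direction was longer than 3, that of ZNF556, ZNF57 and ZNF77 in SOR. Run length depends on the share called, which was between 5.69% and 12.8% in 1 direction in these comparisons. In SOR+NOB against Control 49.8% of members fell, and 73.2% of those in cluster 11. The lengths of runs therefore do not show a regional difference between treatments.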
